A study of Mus musculus with 6 samples.

Results

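Normal rabbit IgG coupled to Protein A beads brings down some RNA from a testis lysate although it has no chosen target there. The RNA recovered in this way was compared with total testis RNA on 4 of the 6 arrays of the study, namely the arrays titled IgG 1 and IgG 2 and those titled WCE 1 and WCE 2, chosen by their titles. The study asked which testis mRNAs come down with MVH, the germ cell helicase also called DDX4. All samples were testis of the mouse strain written C57/BL6 in the labels. The IgG precipitate was made with normal rabbit IgG from Santa Cruz, and the group labelled WCE was total RNA taken with no antibody, called total RNA here. The remaining group, the MVH precipitate, was made with an anti-MVH antibody from Abcam, and its 2 arrays are quoted only beside the others. Per the labels' protocols, testes were dispersed through needles, the cells were lysed in a detergent buffer, and the cleared lysate was first passed over beads alone. It was then kept with antibody overnight and the beads were washed 5 times before RNA was extracted. Nothing in the labels ties arrays 1 and 2 of a group to different animals, so every p-value measures only how far these samples spread, and that spread may be technical.

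An antibody from an animal that was not immunised against the target is the usual control of an immunoprecipitation. RNA can stay with such an antibody, with the beads or with the tube without any chosen target, and it is the background against which a specific antibody is read. Testis is dominated by germ cells, from spermatogonia through meiotic spermatocytes to spermatids, and also holds the supporting Sertoli cells, the androgen-producing Leydig cells and the muscle-like peritubular cells around the tubules.

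Each array listed between 22090 and 22965 of the 23473 probes, and the rest were blank. Values are 1-colour intensities, converted to log2, centred on each array's median and shown rescaled so that every array has a median of 30. A mean scaled intensity under 10 over the 4 arrays was called dim, which covered 4784 of the 21413 probes listed on all 4 arrays and left 16629 bright ones. The SD of the log2 difference between the arrays of a group was 0.61 in the IgG precipitate against 0.45 in total RNA. For the IgG arrays it was 0.57 over bright probes and 0.72 over dim ones. IgG precipitate 2 differed from the other arrays as deposited, with a median of 20.8 against 30 and the most blank probes, at 1383. The protamine and transition protein genes Prm1 and Tnp1, which mark spermatids, were among the brightest probes on every array. After amplification and centring, a difference is relative to the median probe, and how much RNA the beads recovered is not known.

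The gelsolin gene Gsn rose 14.3-fold in the IgG precipitate and the ubiquitin ligase gene Trim25 rose 8.75-fold. These were the 2 probes past an adjusted p of 0.05 in limma, 0.00934% of those tested, and 0 probes were lower past it. At an unadjusted p under 0.05 there were 2002 probes higher and 1898 lower, where 1071 in all would be expected by chance. The adjusted values lay close to the threshold: the next smallest was 0.0542, and 153 probes higher and 39 lower had one between 0.05 and 0.06. The count rested on which probes set the prior of the spread, since taking it from probes listed on all 4 arrays gave 304 higher and 109 lower. Both counts were known when the fit over every probe was kept as the main one. Leaving out either total RNA array gave 0 calls in either direction, and leaving out IgG precipitate 1 gave 46 higher and 12 lower.

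A count by size, with no test, took probes whose lower IgG array was at least 2-fold above the higher total RNA array, or the reverse. It found 391 probes higher with IgG (1.83%) and 166 lower (0.775%), with median log2 differences of 1.55 and -1.43. With the values as deposited and no centring, these became 140 higher and 386 lower. That setting keeps the lower deposited median of IgG precipitate 2, and moved the median log2 difference of all probes from -0.10 to -0.37. The groups did not overlap at 4278 probes higher with IgG (20.0%) and 6334 lower (29.6%). Over bright probes these shares were 22.5% and 31.0%, over dim ones 11.2% and 24.6%, and with 1 probe per gene 20.9% and 29.0%. Of the probes past 2-fold, 285 of those higher and 120 of those lower had a gene symbol. Within the higher set, 200 probes were brighter on IgG precipitate 1 and 191 on IgG precipitate 2. Taken alone, IgG precipitate 1 had 1116 probes at least 2-fold above both total RNA arrays and 614 below. IgG precipitate 2 had 872 above and 848 below, so the excess of higher probes was larger on the first array.

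**Figure D1:**
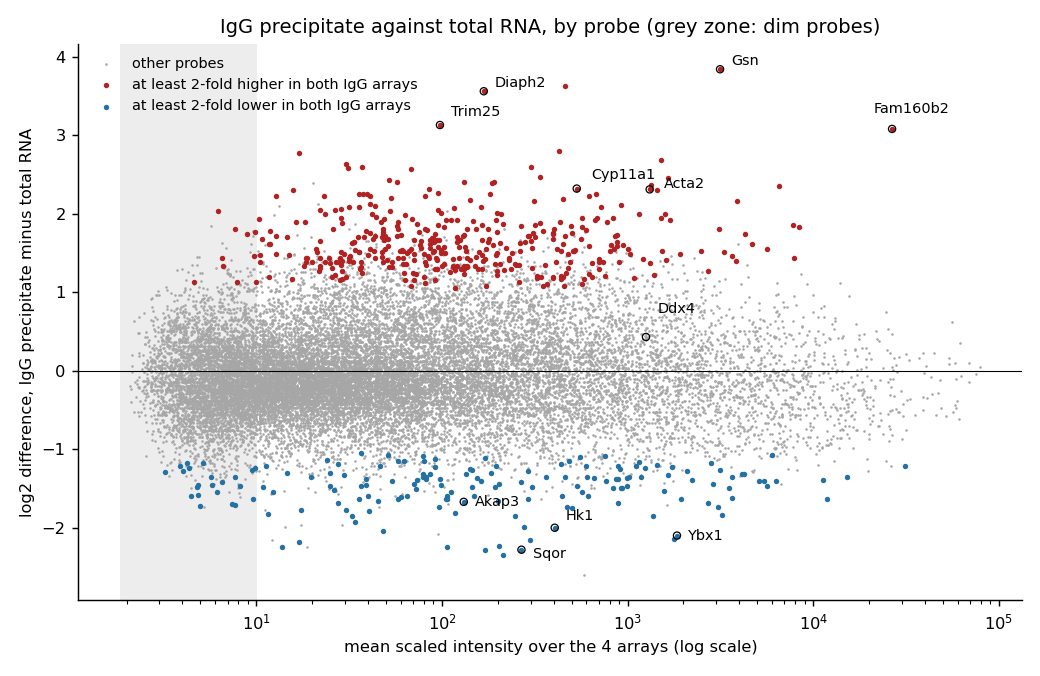
Each point is 1 of 21413 probes, placed by its mean scaled intensity over the 4 arrays (log axis) and its log2 difference, IgG precipitate minus total RNA. Probes at least 2-fold apart in both arrays are red (391 higher) or blue (166 lower), circles mark named genes, and the grey zone holds probes under a mean of 10, where the spread is wide and few probes meet the size rule.

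Large differences were rarer among dim probes. In the lowest quartile of mean level, 0.261% of probes were past 2-fold higher and 0.43% lower. The shares were 1.16% and 0.336% in the second quartile, 3.05% and 0.859% in the third and 2.84% and 1.48% in the brightest. Among bright probes as a whole, 382 were past 2-fold higher (2.30%) and 144 lower (0.866%), against 9 (0.188%) and 22 (0.460%) of the dim ones. Either side of the boundary, 0.664% of the 1054 probes with a mean of 8 to 10 and 1.37% of the 879 probes with a mean of 10 to 12 were past 2-fold in either direction.

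Gsn encodes gelsolin, which severs and caps actin filaments. Its scaled intensity was 4879 and 6904 in the IgG precipitates and 414 and 396 in total RNA, a log2 difference of 3.84 ± 0.32 (SE, n = 2 per group, limma adjusted p = 0.0223). The 42 genes of the actin cytoskeleton list, which includes Gsn, had a median of 0.07 (-0.20 with no centring). Past 2-fold were 2 higher (4.76%) and 0 lower, against 1.85% and 0.782% of all genes. For Gsn both IgG arrays stood far above both total RNA arrays, while the MVH precipitates, at 723 and 461, lay much nearer total RNA. The formin gene Diaph2, whose product nucleates actin filaments, read 427 and 196 with IgG against 28.4 and 21.1, a difference of 3.56 ± 0.39 that did not pass (adjusted p = 0.0542). Its MVH precipitates were intermediate, at 113 and 135. The centriolar satellite gene Pcm1 read 109 and 123 with IgG against 16.7 and 22.9 (2.57, adjusted p = 0.0542). In the MVH precipitates it read 100 and 222, close to or above the IgG arrays.

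Trim25, an RNA-binding ubiquitin ligase of the interferon response, read 156 and 195 with IgG against 20 and 19.8 in total RNA, and 20 and 27.7 with MVH. Its log2 difference was 3.13 ± 0.29 (SE, n = 2 per group, limma adjusted p = 0.0251). The groups stood wide apart and the arrays within each were close. The calls of both genes were sensitive to single arrays: without the second total RNA array the adjusted p was 0.306 for each, and without the first it was 0.349. Without either MVH array, which enters the fit only through the spread, Trim25 had an adjusted p of 0.0607, and without IgG precipitate 2 it had 0.0502.

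Several RNAs of mitochondrial proteins were among the other large differences, none past the threshold. Slc25a46, of the mitochondrial carrier family, read 505 and 1003 with IgG against 105 and 99.8. Cmc2, which takes part in cytochrome c oxidase assembly, read 1810 and 3466 against 350 and 430, and the sideroflexin gene Sfxn3 read 256 and 384 against 61.5 and 56.6. Their log2 differences were 2.80, 2.69 and 2.41, each with an adjusted p of 0.0542. As a group, nuclear genes of the respiratory chain and ATP synthase did not share this, with a median of -0.02 over 80 genes. Of these, 36 were positive and 44 negative, and 0 were past 2-fold either way. Over all genes 42.7% were positive, and 1.85% and 0.782% were past 2-fold higher and lower.

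The brightest RNA of the set was Fam160b2, at 26416 and 69763 with IgG against 4693 and 5497 in total RNA (3.08 ± 0.44, adjusted p = 0.0542). The arrays of the precipitate differed from each other more than those of total RNA. Spag7 was tighter, at 2556 and 3044 against 471 and 550 (2.45). Tex15, a gene needed for meiosis and transposon silencing in male germ cells, read 529 and 611 against 92.6 and 113 (2.47). The polyamine acetyltransferase-like gene Satl1 read 1326 and 3210 against 448 and 357 (2.37), and its MVH values of 1758 and 1871 lay within the IgG range.

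The rest of the 15 largest included genes near the boundary of dim probes. The pseudogene Zfp353-ps read 199 and 243 with IgG against 31.6 and 53.8 (2.41). Plagl1, an imprinted zinc finger gene, read 26.6 and 79.6 against 9.4 and 5.9 (2.63). Slc51a, a subunit of an organic solute transporter, read 22.1 and 88.3 against 7.9 and 6.9 (2.58), and Tro, which encodes the adhesion protein trophinin, 107 and 23.7 against 6.3 and 11 (2.60). In these last 3, total RNA lay near or under 10 and the IgG arrays were several-fold apart, so their sizes are uncertain.

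**Figure D2:**
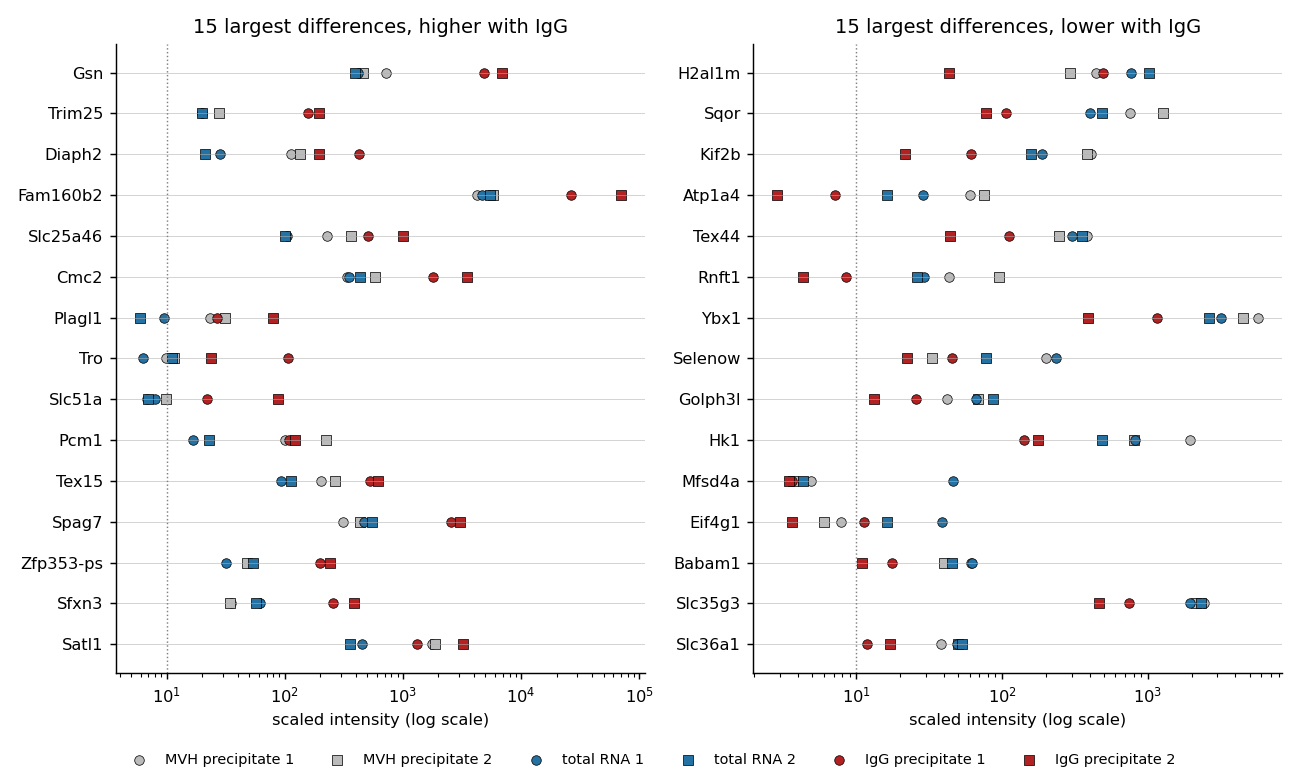
Scaled intensity (log axis) on each of the 6 arrays for the 15 genes with the largest difference in each direction, with circles for array 1 and squares for array 2 of a group (red IgG, blue total RNA, grey MVH). The genes were taken among bright probes with a descriptive symbol whose IgG and total RNA arrays did not overlap. Gsn and Trim25 show the widest gaps with close replicates, while H2al1m, Tro and Slc51a show IgG arrays far apart; the dotted line marks the boundary of dim probes at 10.

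No RNA fell past the threshold, and the largest differences in that direction included a spermatid histone, metabolic enzymes and mRNA-binding proteins. H2al1m, an H2A histone variant gene of spermatids, read 496 and 43.4 with IgG against 772 and 1027 in total RNA (-2.60 ± 0.89, adjusted p = 0.176), a difference carried mostly by IgG precipitate 2. Sqor, the sulfide oxidising enzyme of mitochondria, was steadier, at 107 and 77.7 against 400 and 489 (-2.28 ± 0.34, adjusted p = 0.0542). Its MVH values of 751 and 1277 were above those of total RNA. The hexokinase gene Hk1 read 141 and 176 with IgG, 815 and 489 in total RNA and 1942 and 811 with MVH (-2.00, adjusted p = 0.0754).

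As with Sqor, other genes of the set read lower with IgG and higher on both MVH arrays than in total RNA. Kif2b, a microtubule-depolymerising kinesin gene, read 61 and 21.6 with IgG, 189 and 157 in total RNA and 410 and 382 with MVH (-2.25). Atp1a4, the sodium pump subunit of sperm, read 7.2 and 2.88, 28.5 and 16.3, and 60.4 and 75.3 (-2.24). Ybx1, which encodes an mRNA-packaging Y-box protein, read 1166 and 392, 3204 and 2617, and 5750 and 4497 (-2.10, adjusted p = 0.0774). Rnft1, a ubiquitin ligase gene, read 8.5 and 4.33, 29 and 26, and 43.4 and 95 (-2.18). These 4 were picked among genes whose IgG and total RNA arrays did not overlap, as was so on the lower side at 29.6% of all probes. The comparisons of the precipitates share the total RNA arrays.

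At other genes of the set the MVH arrays were not both above the total RNA arrays. Tex44 read 111 and 44.3 with IgG against 304 and 355 (-2.23), with MVH at 382 and 247. Slc35g3 read 745 and 465 against 1937 and 2321 (-1.85), with MVH at 2448 and 2156. The amino acid transporter gene Slc36a1 read 11.9 and 17 against 49.1 and 53.3 (-1.85), with MVH at 37.9 and 49.6. Of the rest, Selenow differed by -2.08, Golph3l by -2.04 and Babam1 by -1.93, with adjusted p from 0.059 to 0.221. Mfsd4a (-1.99) rested on the first total RNA array, at 46 against 4.3 on the second, and the translation scaffold gene Eif4g1 (-1.97) read 11.3 and 3.61 against 38.8 and 16.2.

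Markers of Leydig cells, the steroid-producing cells between the tubules, tended to stand higher with IgG. Of 20 genes listed, 15 had a probe on all 4 arrays, and 12 of these were positive and 3 negative. Their median log2 difference was 0.84, against -0.09 over all 15225 genes, of which 42.7% were positive. By size 3 of the 15 were past 2-fold higher and 0 lower, against 1.85% and 0.782% of all genes, and 0 passed the test. Their summed scaled intensity was 10436 and 9051 with IgG against 4650 and 6419 in total RNA, and 3812 and 4393 with MVH. The median was positive on both IgG arrays, at 1.00 and 0.80, and stayed at 0.57 with no centring. In bulk RNA, more cells of a type and more RNA recovered per cell cannot be told apart.

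The members ran from the first enzyme of steroid synthesis to its regulators. Cyp11a1, which cleaves the side chain of cholesterol, read 1232 and 551 with IgG against 119 and 227 (2.32 ± 0.45, adjusted p = 0.0631). The estrogen sulfotransferase gene Sult1e1 read 168 and 183 against 36.1 and 59.6 (1.92), and Nr5a1, the nuclear receptor that drives steroidogenic genes, 155 and 130 against 46.4 and 48.3 (1.58). These 3 genes were the members past 2-fold higher. Hsd3b6 differed by 1.18, Cyp17a1 by 1.17, Hsd3b1 by 1.05 and Star, which was dim, by 0.59, while Scarb1 differed by -0.30 and Nr4a1 by -0.15.

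Peritubular and smooth muscle markers were mixed. Of 22 genes, 14 were positive (63.6%, against 42.7% of all genes) and 8 negative, with a median of 0.25. By size 3 were past 2-fold higher (13.6%) and 0 lower, against 1.85% and 0.782% of all genes. The median was -0.01 with no centring and 0.48 and 0.15 on the IgG arrays. Smooth muscle actin Acta2 read 3037 and 1388 with IgG against 370 and 463 (2.31 ± 0.42, adjusted p = 0.0590), the smooth muscle myosin gene Myh11 read 78.5 and 45.7 against 12.6 and 12.6 (2.25), and Pdgfra read 76.9 and 103 against 32.6 and 33.3 (1.43). The other smooth muscle actin, Actg2, went the other way, at 5729 and 4382 against 9314 and 12443 (-1.10). The summed intensity of the list was lower with IgG, at 10047 and 6947 against 10385 and 13705, with Actg2 as its brightest member.

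Sertoli cell markers had a median of 0.12 over 33 genes (19 positive), -0.14 with no centring and -0.09 without IgG precipitate 1. Rhox8 was the 1 member past 2-fold, at 1045 and 1624 against 398 and 442 (1.64). Endothelial markers (18 genes, median -0.25, 5 positive) and macrophage, lymphoid and blood markers (22 genes, median -0.26, 7 positive) lay below the median of all genes, with 0 past 2-fold either way. The complement gene C1qb read 274 and 422 with IgG against 644 and 907 (-1.17). The complement genes C1qc (0.63) and C1qa (0.50) went the other way with overlapping groups, as did the blood marker Pf4 (1.01) without overlap. The 13 genes of Fc receptors and other IgG-binding proteins, whose products can hold antibody, had a median of -0.20 with 4 positive and 0 past 2-fold. Over all genes 42.7% were positive, 1.85% past 2-fold higher and 0.782% lower. In lists this short, 0 past 2-fold is therefore near the share of all genes.

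**Figure D3:**
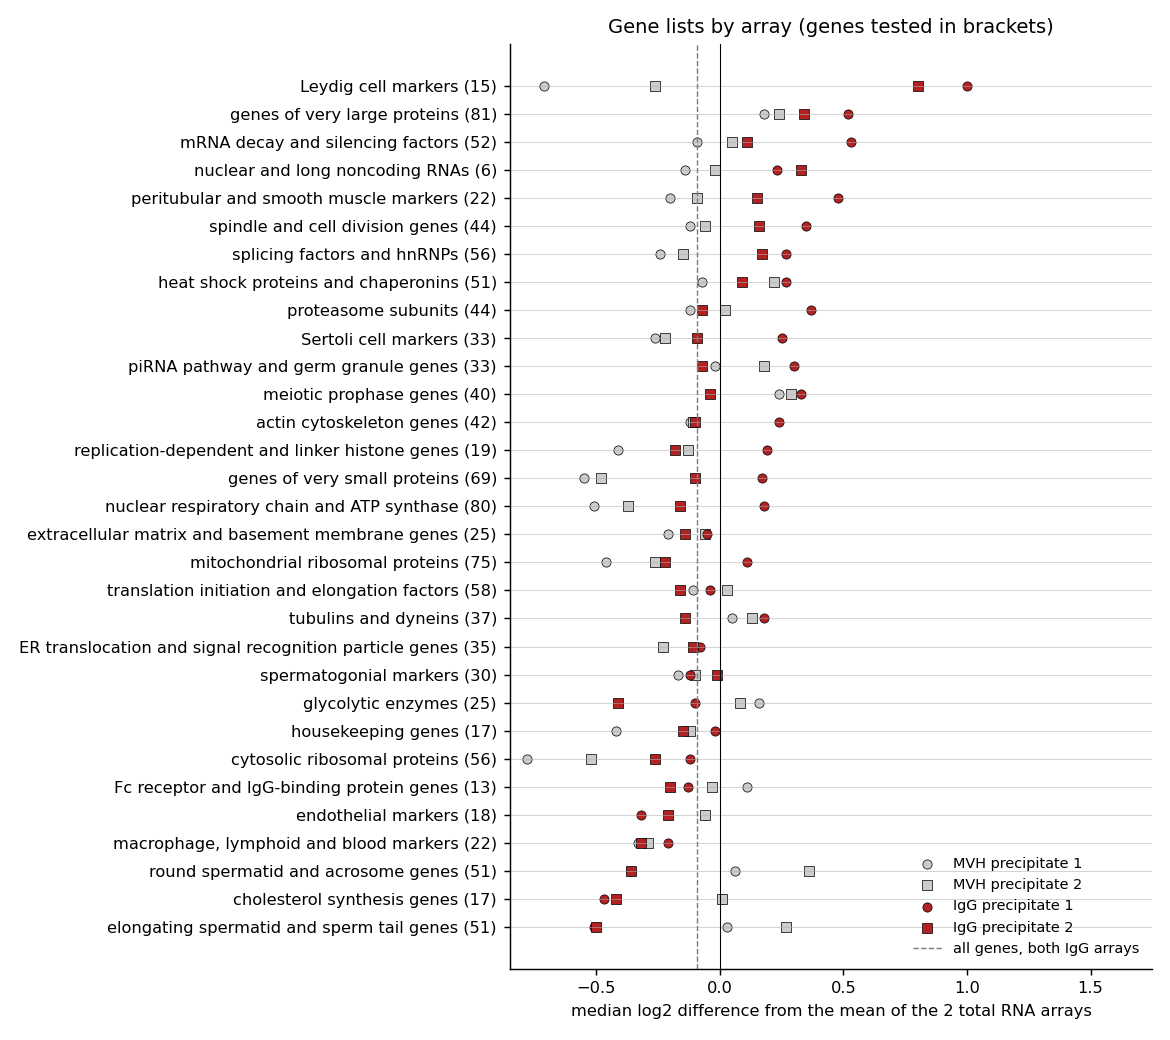
Median log2 difference from the mean of the 2 total RNA arrays for each gene list on the IgG arrays (red) and, for reference, the MVH arrays (grey), with circles for array 1 and squares for array 2 and the number of genes in brackets. Leydig cell markers lie highest on both IgG arrays (1.00 and 0.80) and genes of elongating spermatids among the lowest; the dashed line is the median of all genes, -0.09.

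By list median, genes of spermatids stood lower with IgG. Those of round spermatids and the acrosome had a median of -0.36 over 51 genes, with 12 positive and 39 negative. Those of elongating spermatids and the sperm tail had a median of -0.54 over 51 genes, with 10 positive and 41 negative and a range from -1.67 to 1.23. Summed scaled intensity of the round list overlapped, at 239025 and 286739 with IgG against 270954 and 313785 in total RNA. That of the elongating list was lower with IgG, at 578790 and 718693 against 736343 and 863558. In the first list 1 gene was past 2-fold higher (1.96%) and 2 were lower (3.92%), and in the second 0 and 2 (3.92%). The shares of all genes were 42.7% positive, 1.85% past 2-fold higher and 0.782% lower. Neither list had a member past the test. The direction was the same in every setting run, from -0.33 without the second total RNA array to -0.81 with no centring for the elongating list.

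Akap3, a scaffold of the sperm tail's fibrous sheath, read 66.7 and 58.8 with IgG against 208 and 191 (-1.67 ± 0.29, adjusted p = 0.0545). Odf3, an outer dense fibre gene, read 2087 and 2030 against 4997 and 5558 (-1.36), and Pgk2, the glycolytic kinase of late germ cells, 3321 and 2185 against 5752 and 7574 (-1.29). Spata20 differed by -1.36 and Cby2 by -1.33, and a second probe of Spata20 by -0.56. The member past 2-fold higher was Plcz1, the sperm phospholipase that triggers egg activation, at 2661 and 2417 against 602 and 676 (1.99 ± 0.39, adjusted p = 0.0646). Its MVH values, 2342 and 5491, were also above total RNA.

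Earlier germ cell genes divided. Among all genes, 42.7% were positive, 1.85% past 2-fold higher and 0.782% lower. Meiotic prophase genes had a median of 0.11 over 40 genes (25 positive, 62.5%). It was -0.16 with no centring and -0.04 without IgG precipitate 1. In this list 0 were past 2-fold lower and 5 were higher (12.5%). They were Tex15, the cohesin gene Smc1b at 1083 and 1240 against 220 and 339 (2.08), Trip13 (1.53), Meioc (1.52) and the recombinase gene Dmc1 (1.37). The synaptonemal complex gene Sycp3 stood at -0.73. Among genes of the piRNA pathway, which silences transposons, and of germ granules, the median was 0.12 over 33 genes (17 positive, 51.5%). With 0 lower, 4 were past 2-fold higher (12.1%): Tdrd5 at 243 and 221 against 55.7 and 68.2 (1.91), Gpat2 (1.53), Stk31 (1.51) and Nanos3 (1.51). Mael (-1.12) and Gtsf1 (-0.94) lay on the other side.

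Genes of RNA processing leaned to the IgG side. Of 52 mRNA decay and silencing factors, 36 were positive (69.2%) and 16 negative, with 3 past 2-fold higher (5.77%) and 1 lower (1.92%). Their median was 0.34, with 0.53 and 0.11 on the IgG arrays and 0.07 with no centring. Among all genes 42.7% were positive, 1.85% past 2-fold higher and 0.782% lower. Tnrc6c, a partner of Argonaute in miRNA silencing, read 444 and 812 against 192 and 154 (1.80), the exonuclease gene Xrn1 29.8 and 42.4 against 14.8 and 11.8 (1.43), and the decapping scaffold gene Edc4 485 and 389 against 162 and 189 (1.31). The deadenylase-complex gene Cnot4 went the other way, at 82.4 and 71.4 against 168 and 214 (-1.31). Of 56 splicing factors and hnRNPs, 36 were positive (64.3%), with a median of 0.22 (-0.04 with no centring), 5 past 2-fold higher (8.93%) and 0 lower. Among these were Snrpf (1.55), Prpf8 (1.55), Snrnp200 (1.53) and Sf3b3 (1.29), all of the spliceosome.

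Genes of translation did not lean this way. Cytosolic ribosomal protein genes had a median of -0.15 over 56 genes, with 21 positive (37.5%, against 42.7% of all genes) and 0 past 2-fold. Translation initiation and elongation factors had a median of -0.07 over 58 genes. Eif4a2 (1.22) was the 1 past 2-fold higher. The elongation factor gene Eef1a1 was the 1 lower, at 18539 and 18775 against 40935 and 46158 (-1.22). Each made up 1.72% of the list, against 1.85% higher and 0.782% lower of all genes. The initiation factor gene Eif4b read 30.6 and 22.2 with IgG, 71.1 and 61 in total RNA and 148 and 132 with MVH (-1.34 ± 0.29, adjusted p = 0.0723). Cholesterol synthesis genes had a median of -0.42 over 17 genes, with 3 positive and 14 negative and 0 past 2-fold, Cyp51 lowest at -1.11.

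The genomic span of a gene moved with the share past 2-fold. Among bright genes, 1.1% of those in the lowest quartile of span were past 2-fold higher with IgG, and 1.76%, 2.59% and 3.75% in the following quartiles. The shares past 2-fold lower were 1.03%, 1.2%, 0.764% and 0.432%. The median difference moved little, from -0.13 in the lowest quartile to -0.05 in the highest. Spans came from RefSeq and were known for 15167 of 15225 genes (99.6%); transcript length was not analysed here.

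**Figure D4:**
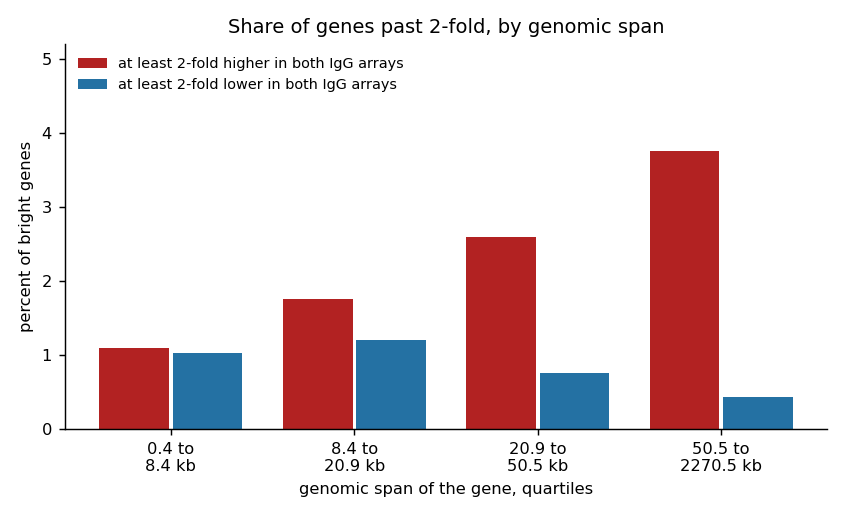
Percent of bright genes at least 2-fold higher (red) or lower (blue) in both IgG arrays than in both total RNA arrays, by quartile of genomic span in kilobases. The higher share runs from 1.1% to 3.75% and the lower share from 1.03% to 0.432% between the lowest and highest quartiles; the bars are shares of all bright genes in a quartile and carry no error.

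Genes known for very large proteins, a list drawn up after values had been seen, had a median of 0.39 over 81 genes, 23 of them dim. The median was 0.12 with no centring. Of these genes 56 were positive (69.1%, against 42.7% of all genes). Where 1.85% and 0.782% of all genes were past 2-fold higher and lower, 0 were lower here and 12 higher (14.8%). Besides Tex15 and Myh11 these included Vps13a, a lipid transfer protein gene, at 1329 and 1670 against 370 and 323 (2.11), the spectrin gene Sptbn1 at 267 and 260 against 74.6 and 51.4 (2.09) and the dynein gene Dnah6 at 1828 and 1837 against 433 and 492 (1.99). Brca2 went the other way (-0.96). Genes known for very small proteins, from a list of the same origin, had a median of 0.01 over 69 genes, with 35 positive (50.7%) and 1 past 2-fold higher (1.45%). Protein sizes were not measured, so both lists are a description.

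**Figure D5:**
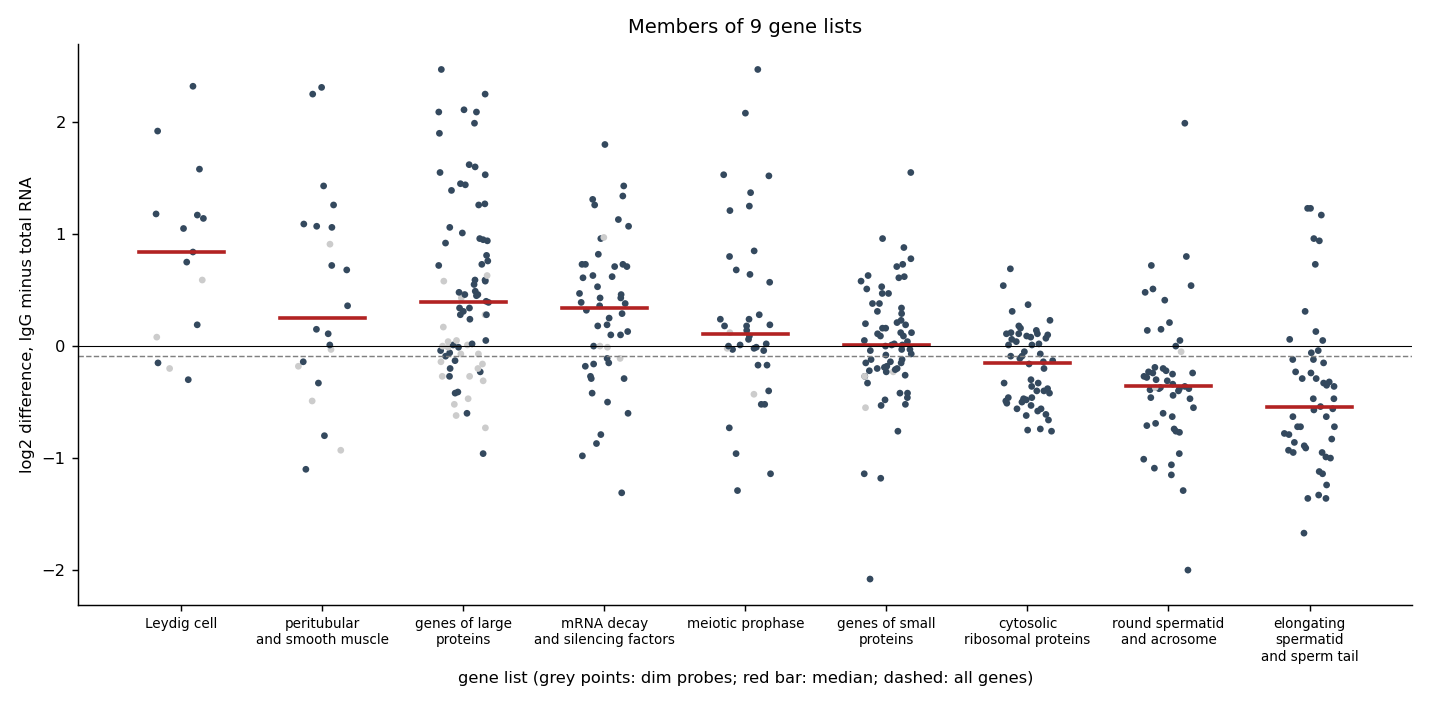
Log2 difference (IgG precipitate minus total RNA) of each gene in 9 gene lists, with grey points for dim probes, a red bar for the median and a dashed line for the median of all genes. Members spread widely within most lists, from -0.30 to 2.32 for Leydig cell markers, while cytosolic ribosomal protein genes ran only from -0.76 to 0.69. The median of Leydig cell markers was 0.84 and that of elongating spermatid genes -0.54.

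Dim probes showed large values less steadily. Armc4 was the 1 named gene of the dim set whose higher values agree closely, at 15.1 and 15.3 with IgG against 4.6 and 4.3 (1.77 ± 0.26, adjusted p = 0.0542). Pgghg, at 23.5 and 6.78 against 5.5 and 2.7 (1.71), and Gpalpp1, at 3.4 and 17.7 against 2.1 and 3 (1.63), each rested on 1 IgG array, as did Slc15a2 (1.56). On the other side, Dpp6 read 2.4 and 2.45 against 6.7 and 7.9 (-1.58, adjusted p = 0.0545), Antxr2 differed by -1.71, Acvr1 by -1.70 and Reg3g by -1.63. Probes listed on both arrays of one group and blank on both of the other numbered 74 for IgG and 70 for total RNA. All were dim, with highest mean scaled intensities of 7.36 and 5.65.

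Genes often used as references ranged widely, with a median of -0.11 over 17 housekeeping genes, 5 of them positive, from Eef1a1 at -1.22 to Hsp90ab1 at 0.90. Tbp differed by -0.74 and Gusb by -0.69. The mRNA of MVH itself, Ddx4, read 1468 and 1391 with IgG against 860 and 1306 (0.43, adjusted p = 0.486). Actb differed by -0.06 and a second probe of it by 0.45, Snd1 by -0.03 and Hat1 by -0.50, none past the threshold, and the sign of Actb and of Snd1 turned in some settings. Prm1 (-0.15) and Tnp1 (0.05) lay at the top of the scale, where differences may be compressed, and the probe of Gapdh was dim (-0.82).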

How the data were processed

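RNA of 6 mouse testis samples, 2 in each of 3 groups, was measured on 1-colour arrays. The aminoallyl aRNA made by amplification carried Cy5, per the labels' protocols. The authors deposited a linear intensity per probe; its background correction and scaling were not given in the sources used here. Label text on tumour tissue and miRNA labelling was left aside as foreign to these samples. Of 23473 probes, 16631 had 1 gene symbol in the platform annotation and 6842 had none; 3947 symbols were updated through RefSeq and 62 were not matched. The deposited table names no genome build.

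Deposited intensities were converted to log2 and centred on each array's median. A linear model over all 6 arrays was fitted with limma (version 3.58.1, under R 4.3.3; lmFit, then eBayes), with 3 residual degrees of freedom and a prior of 5.77, and IgG minus total RNA was tested where all 4 arrays were listed, with Benjamini-Hochberg adjustment over 21413 probes. The prior came from every probe listed on any array. An earlier version took it from probes listed on all 4 arrays; the choice was settled after both counts were known, and that version is given as an added alternative. The median standard error was 0.31. The number of arrays limits the precision.

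The samples compared, the 30 gene lists and the tests were chosen with earlier results of these data known, and 2 further lists after values had been seen. A gene was represented by its brightest probe. The text names the 15 largest differences each way among bright probes with a descriptive gene symbol whose groups did not overlap (past the threshold first). Probes with no symbol and clone-type names were passed over. Also named are most of the 5 largest dim ones each way, at most 4 members per list, by size, and genes fixed by name. Other members named were chosen after their values were seen. The list of mitochondrially encoded genes had 0 members tested, and protein length was not analysed here. The steps were tested on simulated data. There, 16.4% of 2-fold, 83.6% of 4-fold and 97.0% of 8-fold changes were called, with 6 false calls. The simulation held only the 21241 probes listed on all 6 arrays. For most probes it set a spread below the median of the main fit, with no trend by level. These shares therefore need not hold for the main fit and may be too high. Alternatives were no centring, quantile normalization, 75th percentile centring, dropping the dimmest 25%, adding 4 before log2, 1 probe per gene, probes on all 6 arrays, a variance trend with robust estimation, only the 4 arrays, a replicate block, other dim boundaries (5 and 20) and leaving out each array. Plots were drawn with matplotlib 3.10.9.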

Additional observations from a re-analysis of the deposited data

How the results depend on the processing

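None of the 30 named genes with the largest differences turned sign in any setting run. They had been picked for large differences and groups that did not overlap. Leaving out 1 array could therefore not turn a sign, and the result is no measure of stability. Counts of calls moved with nearly every choice. Probes called higher and lower, 2 and 0 in the main fit (bright 2 and 0, dim 0 and 0), were 5 and 0 with no centring (bright 5), 112 and 29 with quantile normalization (bright 111 and 28, dim 1 and 1), 150 and 61 with 75th percentile centring (bright 149 and 55, dim 1 and 6), 883 and 472 without the dimmest 25% (all bright), and 723 and 395 with an offset of 4 (bright 721 and 392, dim 2 and 3). They were 278 and 108 with 1 probe per gene (bright 276 and 95, dim 2 and 13), 344 and 125 over probes listed on all 6 arrays (bright 340 and 112, dim 4 and 13), 798 and 455 with a variance trend and robust estimation (bright 792 and 437, dim 6 and 18), and 304 and 109 with the prior from probes listed on all 4 arrays (bright 300 and 96, dim 4 and 13), an alternative chosen after seeing the data. Only the 4 arrays gave 2 and 0. Leaving out 1 array gave 0 to 46 higher (bright 0 to 44, dim 0 to 2) and 0 to 12 lower (bright 0 to 12); leaving out either MVH array gave 1 and 0. The replicate block gave 123 and 27 (bright 121 and 25, dim 2 and 2); same-numbered arrays shared deviations only weakly (correlations of 0.10 to 0.16), so the numbers are not taken to pair the samples. By size, 391 higher and 166 lower became 140 and 386 with no centring, and 618 to 1135 and 367 to 848 when 1 array was left out, since the rule then asks less.

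With no centring, list medians were -0.42 for cytosolic ribosomal proteins, -0.32 for mitochondrial ribosomal proteins, -0.28 for the respiratory chain, 0.57 for Leydig, -0.14 for Sertoli, -0.01 for peritubular, -0.30 for extracellular matrix, -0.51 for endothelial, -0.53 for macrophage and blood and -0.34 for spermatogonial genes. They were -0.16 for meiotic, -0.62 for round spermatid, -0.81 for elongating spermatid, -0.12 for proteasome, -0.34 for translation factor, -0.15 for piRNA, 0.07 for mRNA decay, -0.04 for splicing, -0.12 for heat shock, -0.20 for actin, -0.34 for tubulin, -0.03 for spindle, -0.34 for ER translocation, -0.68 for cholesterol, -0.37 for glycolytic, -0.47 for Fc receptor, 0.02 for noncoding, -0.37 for housekeeping, 0.12 for very large and -0.26 for very small protein genes. Without the dimmest 25%, peritubular moved to 0.68, macrophage and blood to -0.37, spermatogonial to 0.17, Fc receptor to -0.32 and very large proteins to 0.58. Quantile normalization gave -0.02 for spermatogonial and -0.37 for elongating spermatid genes, 75th percentile centring -0.14 for spermatogonial and 0.23 for noncoding genes, and the offset -0.13 for Fc receptor and 0.21 for noncoding genes. Leaving out 1 array gave -0.33 to -0.06 for cytosolic ribosomal proteins, -0.09 to 0.25 for Sertoli cell, 0.15 to 0.48 for peritubular and smooth muscle, -0.14 to 0.10 for extracellular matrix and basement membrane, -0.12 to 0.06 for spermatogonial, -0.04 to 0.33 for meiotic prophase, -0.70 to -0.33 for elongating spermatid and sperm tail, -0.16 to -0.03 for translation initiation and elongation factors, 0.11 to 0.53 for mRNA decay and silencing factors. It gave 0.09 to 0.27 for heat shock proteins and chaperonins, -0.14 to 0.18 for tubulins and dyneins, 0.16 to 0.35 for spindle and cell division, -0.54 to -0.31 for cholesterol synthesis, -0.41 to -0.10 for glycolytic enzymes, -0.26 to -0.13 for Fc receptor and IgG-binding protein, 0.23 to 0.44 for nuclear and long noncoding RNAs, -0.18 to -0.02 for housekeeping, 0.34 to 0.52 for very large proteins.

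Signs turned for these genes, none past the threshold, of which C1qc (0.63) and C1qa (0.50) had the largest main values. Actb was 0.20 with quantile normalization and -0.23 to 0.12 when 1 array was left out. Over the same left-out arrays Snd1 was -0.23 to 0.17, H2ac1 -0.11 to 0.58, C1qa -0.07 to 1.06, C1qc -0.03 to 1.30, Prm1 -0.42 to 0.12, Snhg11 -0.02 to 0.56 and Tnp1 -0.32 to 0.42. With no centring H2ac1 was -0.03, H2ac10 -0.04 and Tnp1 -0.21, and Tnp1 was -0.01 with quantile normalization and -0.00 with 75th percentile centring. The cause of these moves was not tested.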

Other observations

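Chromosome X held 17 of its 497 genes past 2-fold higher with IgG (3.42%) and 0 lower, against 1.8% and 0.805% of 14666 autosomal genes. Besides Diaph2, Tro and Satl1, they included Tab3, an adaptor of inflammatory signalling, at 90.6 and 195 against 21.2 and 33.2 (2.32), the cohesin genes Smc1a at 53.3 and 55.1 against 16.1 and 17.2 (1.70) and Stag2 (1.45), and the histone demethylase gene Kdm6a at 59.4 and 74 against 19.8 and 20.5 (1.72). None passed the test, and the median difference of genes on X, -0.04, was near that of autosomal genes, -0.09. Of 222 genes annotated as long noncoding RNA, 0 were past 2-fold higher and 4 lower (1.8%), 1 of these dim, with a median of -0.22. Among protein-coding genes the shares were 1.88% and 0.76%. The short list of 6 named noncoding RNAs ran the other way, with a median of 0.29. Among the 4 lower genes annotated as long noncoding RNA, 4930429B21Rik read 38.4 and 36.6 with IgG against 102 and 112 (-1.51).

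Heat shock and chaperonin genes had a median of 0.15 over 51 genes, with 28 positive (54.9%, against 42.7% of all genes). By size 3 were past 2-fold higher (5.88%) and 0 lower, against 1.85% and 0.782% of all genes. Dnajb1, a co-chaperone of HSP70, read 10244 and 14221 with IgG against 3705 and 2980 (1.86 ± 0.30, limma adjusted p = 0.0542), while the co-chaperone gene Stip1 stood at -1.16. Spindle and cell division genes had a median of 0.23 over 44 genes (28 positive), with the topoisomerase gene Top2a at 243 and 161 against 65.9 and 71.2 (1.53). Glycolytic enzymes lay on both sides: Hk1 (-2.00), Ldha (-1.43) and Tpi1 (-1.23) lay lower with IgG, and Pfkl (1.65), Pgam1 (1.52) and Ldhb (1.46) higher, none past the threshold. Among proteasome genes, Psmf1, a proteasome inhibitor, stood apart at 1386 and 1379 against 3930 and 6254 (-1.84).

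The other lists had 0 members past the test, and all genes had a median of -0.09. Medians were -0.06 over 75 mitochondrial ribosomal protein genes, -0.08 over 35 genes of ER translocation, -0.07 over 37 tubulin and dynein genes, -0.04 over 25 extracellular matrix genes and -0.08 over 30 spermatogonial markers, of which Nanos3 (1.51) and Foxo1 (1.19) were past 2-fold higher (6.67%). They were -0.11 over 25 glycolytic enzymes, -0.11 over 17 housekeeping genes, 0.14 over 44 proteasome subunits (28 positive), 0.07 over 19 histone genes and 0.29 over 6 nuclear and long noncoding RNAs (5 positive).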
